A study of Mus musculus with 22 samples.

Results

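The comparison described here is that of whole ileum from 24-month-old SIRT1 mutant mice with ileum from flox control mice of the same age. It rests on 7 of the 22 arrays of the series, 4 labelled SIRT1 iKO (replicates 1, 2, 3 and 4) and 3 labelled Flox control (replicates 1, 3 and 4), chosen by tissue, age and genotype in the labels. All 7 came from male C57BL/6 mice kept on chow with no further treatment. Beside it stand young ileum, 6 to 8 weeks of age (4 flox and 4 iKO arrays), and colon at 24 months (3 flox and 4 iKO arrays), from mice of the same strain, sex and diet. The labels do not spell out iKO, name the Cre line or give the part of Sirt1 that was deleted. Nor do they tie the ileum and colon samples to shared animals, and they number replicates without stating that each was a separate mouse, so the p-values measure only the spread between these arrays.

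SIRT1 is a nuclear deacetylase that uses NAD+ and removes acetyl groups from histones and from transcription factors and cofactors, among them p53, NF-kB, PGC-1alpha and FXR. In the intestine it has been studied for its part in bile acid uptake by the ileum, in inflammation and in the behaviour of crypt cells. A flox control carries the Sirt1 allele flanked by loxP sites without its excision, and Cre recombinase removes the flanked part where it is expressed. Whole ileum holds epithelium, immune cells, muscle, stroma and vessels, so a deletion in 1 cell type leaves Sirt1 messenger RNA from the others in the sample.

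A level here is a probe's log2 signal less the 75th percentile of its array, so that 0 is the level of a bright probe, and differences are iKO minus flox on the same scale. Between 49.8% and 61.5% of spots were well above background on the 7 arrays, which correlated at 0.976 to 0.988 within flox, 0.979 to 0.991 within iKO and 0.973 to 0.988 across genotypes. Of 9 markers of ileal enterocytes 8 were well above background on every array, among them Slc51a and Slc51b, which form the basolateral bile acid exporter, and Fabp6, the ileal bile acid binding protein (3.20 to 3.76). Of the 4 Paneth cell markers all were above background on every array. Of 6 markers of duodenum and jejunum, Fabp1, Cyp2c65 and Slc40a1 were above background on all 7 arrays, Lct on 6, Gata4 on 1 and Pdx1 on none.

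Flox 1 and iKO 2 stood apart from the other 5 arrays in genes of the colonic epithelium. Car1, a carbonic anhydrase abundant in the large intestine, lay at 8.18 on flox 1 and 7.79 on iKO 2 and between -3.00 and -2.14 on the others. Aqp8, a colonic water channel, lay at 6.55 and 5.57 on these arrays and between -5.04 and -2.08 on the rest. Hoxb13, a marker of the distal colon, was above background on none. One such array lies in each genotype, and the counts, named genes and list medians of 24-month ileum and both interactions were therefore also computed without these arrays. Markers of other cells varied as well. The joint list of fat and pancreas genes was highest on flox 1, by 1.33 over the mean of the 7 arrays. Of 3 pancreas markers Cela1 was above background on all 7 arrays, Cpa1 on 1, an iKO array, and Prss2 on none. Genes of B and plasma cells were highest on iKO 1 and iKO 4 (1.40 each) and lowest on iKO 3 (-1.37). Genotypes shared only 1 slide, which carried flox 3 and iKO 2, so the difference between these arrays is given as the value on the shared slide. Of this pair iKO 2 had the high colonic genes and flox 3 did not, and the colonic list had a median of 0.50 there. In values on the shared slide genotype and this tissue difference cannot be told apart.

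Sirt1 was read by a pair of probes on chromosome 10, minus strand, of the mouse build mm7 used by the array, with 17446 bases between them. The first, at chr10:62855795-62855854, has no stop codon in 2 of its 3 sense frames and is shown whole. The second, at chr10:62838289-62838348, lies further along the gene in the direction of transcription and is shown by its first 30 bases. The sequences are given because the pair differed in how far it set the genotypes apart, and neither probe is known to lie in the deleted part.
Sirt1, first probe: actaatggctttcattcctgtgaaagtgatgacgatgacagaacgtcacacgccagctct
Sirt1, second probe: aaactagggatcaattttctcaactgcaga

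With the first probe, Sirt1 lay at 0.59, 1.09 and 0.78 on flox arrays 1, 3 and 4 and at 0.28, 0.32, 0.30 and 0.39 on iKO arrays 1 to 4. All 4 iKO arrays lay below all 3 flox arrays, and the iKO arrays were close together (SD 0.04, n = 4) where the flox arrays were not (SD 0.25, n = 3). The difference was -0.50 ± 0.13 (standard error of the limma fit), or 70.8% of the flox level, and did not pass (adjusted p = 0.176). With the second probe the level was -0.72 ± 0.27 (SD, n = 3) in flox and -0.82 ± 0.08 (SD, n = 4) in iKO, and the groups overlapped. Of the other sirtuins and the genes of NAD synthesis and use, 0 passed limma of 5 and 13 tested. Nampt, which makes the NAD precursor nicotinamide mononucleotide, differed by 0.46 ± 0.14 (adjusted p = 0.241), with every iKO array above every flox array, and Sirt5, a mitochondrial sirtuin, by -0.22 ± 0.13 (adjusted p = 0.523).

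In the 24-month ileum 18 genes rose and 8 fell in iKO at an adjusted p under 0.05, which is 0.116% and 0.0516% of the 15490 genes tested. At an unadjusted p under 0.05 there were 937 higher and 919 lower. In all 26 called genes every iKO array lay on the same side of every flox array. Among all genes tested 8.39% had every iKO array above every flox array and 5.77% had every iKO array below. On the shared slide all 26 differed by at least 0.34, and the direction there was fixed in advance by the lack of overlap. Without flox 1 and iKO 2 there were 21 higher and 22 lower genes, and 18 of the 26 passed again.

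The higher and the lower counts depended on single arrays. Leaving out aged flox 4 gave 8 higher and 7 lower genes, and 14 of the 26 lost their call. Omitting young flox 3 gave 24 lower genes, omitting aged flox 1 gave 22, and omitting aged flox 3 gave 21. The lower count was 5 when young flox 1 or aged iKO 3 was omitted and 4 when aged iKO 4 was. Omitting aged iKO 2 left 12 higher genes. The 12 genes that passed whichever of the 15 ileum arrays was left out were Mt1, Prom2, Ankrd22, Wfdc15b, Hebp2, Psrc1, Slc44a2, Arhgap8, Lpar3, ccdc198, Pyroxd2 and Col6a2. In a fit of only the 7 aged ileum arrays 9 of the 26 passed: Mt1, Prom2, Wfdc15b, Bnipl, Ankrd22, Slc44a2, Pllp, Il17re and Lpar3. Arhgap8, Col6a2, Hebp2, Psrc1, Pyroxd2 and ccdc198 were among the 17 that did not. With the mean over the probes of each gene 15 passed, and Ankrd22, Brip1, Ccl27a, Col6a2, Fgf1, Il17re, Macc1, Pla2g2f, Pllp, Prom2 and Pyroxd2 did not. With slide as a fixed factor Mt1, Prom2, Ankrd22, Wfdc15b, Hebp2, Slc44a2, Lpar3 and ccdc198 passed, and with position on the slide as a factor Mt1, Prom2, Wfdc15b, Slc44a2 and Bnipl.

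**Figure D1:**
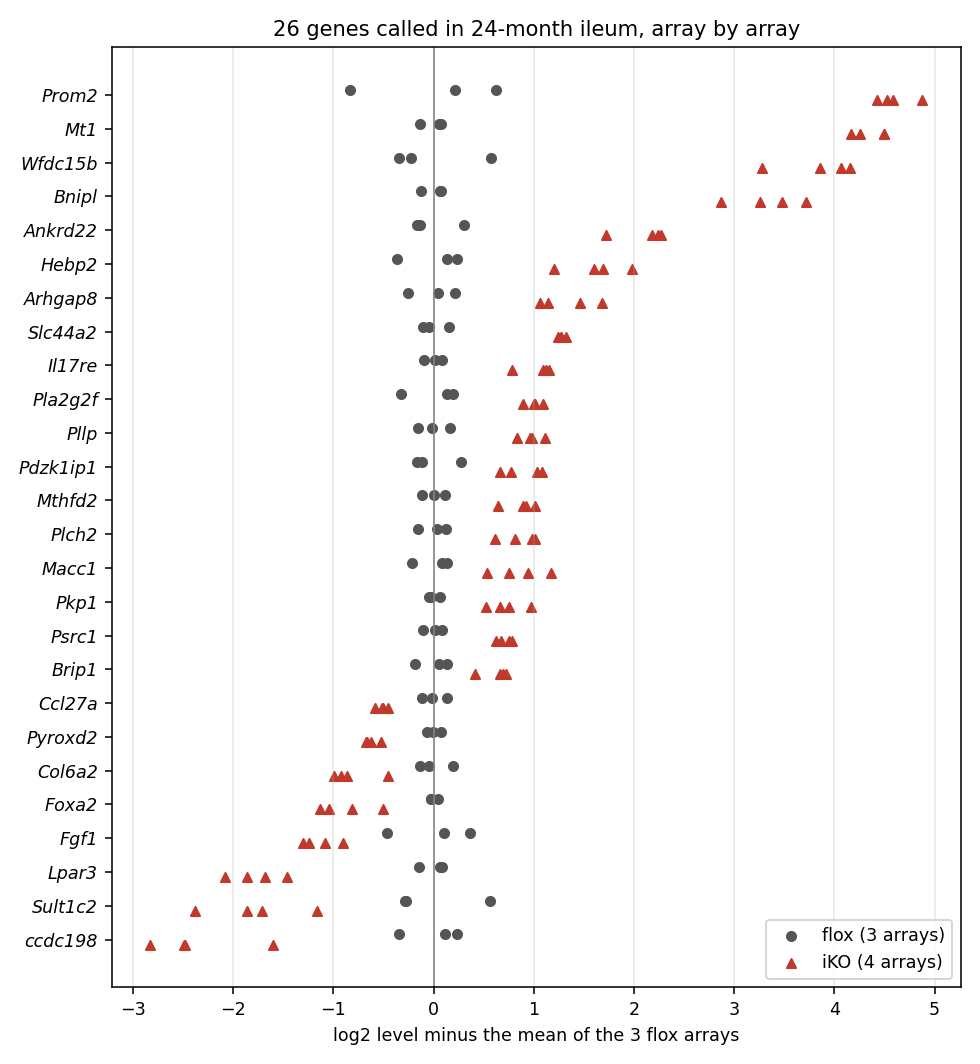
Log2 level of each of the 26 called genes on the 3 flox (grey circles) and 4 iKO arrays (red triangles) of 24-month ileum, minus the mean of the flox arrays. No gene has a flox array within the range of the iKO arrays, and Prom2, Mt1, Wfdc15b and Bnipl lie furthest to the right.

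Metallothioneins are small cysteine-rich proteins that bind zinc and copper, and Mt1 and Mt2 are neighbouring genes that commonly respond together to metals and glucocorticoids. In the 24-month ileum Mt1 rose 20.4-fold in iKO while its neighbour Mt2 did not pass. A pair of Mt1 probes and the single Mt2 probe are shown because the probes are distinct: the longest run of bases shared by an Mt1 probe and the Mt2 probe is 5. They lie on the plus strand of chromosome 8 (mm7), at chr8:92769155-92769214 (Mt1, first), chr8:92768988-92769047 (Mt1, second, shown by its first 30 bases) and chr8:92762515-92762574 (Mt2, likewise). The first Mt1 probe has no stop codon in any of its 3 sense frames. With no genome of this build the exon or intron of the probes was not assigned.
Mt1, first probe: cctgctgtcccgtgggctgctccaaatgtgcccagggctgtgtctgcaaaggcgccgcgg
Mt1, second probe: aactggctctgagaaatgtcctttgcttcc
Mt2 probe: agaagcctagccttttttgtacaaccctga

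Mt1 lay at 3.09, 3.30 and 3.29 on flox arrays 1, 3 and 4 and at 7.72, 7.39, 7.72 and 7.48 on iKO arrays 1 to 4 with the first probe. The lowest iKO array was 4.09 above the highest flox array, and the difference was 4.35 ± 0.21 (adjusted p = 1.89e-07). The second Mt1 probe rose from -2.08 ± 0.36 (SD, n = 3) to 3.39 ± 0.31 (SD, n = 4), a difference of 5.47, again with no overlap. Mt1 passed in all 28 alternatives computed, with differences of 4.21 to 4.91.

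Mt2 lay at 3.22, 3.08 and 3.32 on the flox arrays and at 4.13, 3.00, 4.96 and 2.37 on the iKO arrays. The iKO arrays reached both above and below the flox range, with an SD of 1.16 (n = 4) against 0.12 (n = 3), and the difference was 0.41 ± 0.68 (adjusted p = 0.837). It was -0.040 without iKO 3. Of 18 metallothionein and zinc transporter genes tested, only Mt1 passed, and the median was 0.11 against 0.02 over all genes tested. Slc39a8, an importer of zinc and manganese, differed by 0.65 ± 0.20 (adjusted p = 0.228). Within 1 Mb of Mt1 to either side 32 other genes were tested, with a median of 0.06. Only Pllp, 496 kb away, passed among them, and none of the 8 genes tested between Mt1 and Pllp passed.

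**Figure D2:**
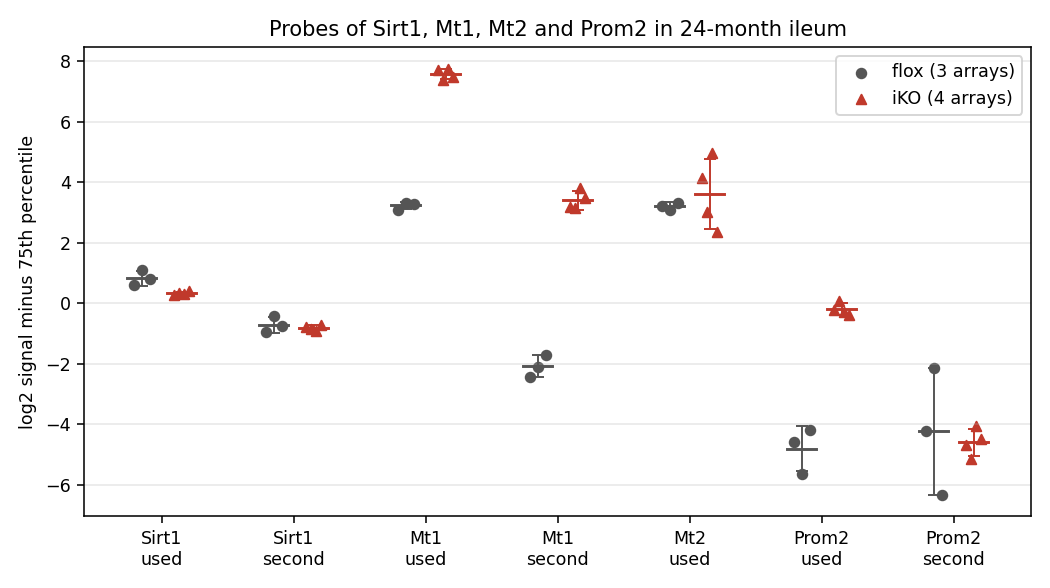
Log2 signal minus the 75th percentile for each probe of Sirt1, Mt1, Mt2 and Prom2 on the 3 flox (grey circles) and 4 iKO arrays (red triangles) of 24-month ileum, with means and SD; "used" marks the brightest probe, which stands for the gene. Both Mt1 probes rose with no overlap, the iKO arrays of Mt2 spanned 2.37 to 4.96 around the flox arrays, and only the used Prom2 probe separated the genotypes.

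Prom2, Wfdc15b and Bnipl were well above background on every iKO array and on no flox array, so that their folds are lower bounds against the background. Their adjusted p were computed from flox signals at background, whose spread need not be that of expression. These p-values therefore do not measure how certain the size of the rise is. Prom2 encodes prominin 2, a cholesterol-binding glycoprotein of membrane protrusions. Wfdc15b belongs to the whey acidic protein family, which includes protease inhibitors, and Bnipl encodes a relative of a BCL2-interacting protein. Over all genes tested, 4 showed this pattern, the other being the unnamed transcript 2900079G21Rik, which did not pass (adjusted p = 0.462). The reverse pattern was seen for 11 genes, of which 0 passed limma. A gene of either pattern met the filter for testing through the genotype in which it was seen, and the counts are given with no test.

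Prom2 lay at -4.60, -5.65 and -4.19 on flox arrays 1, 3 and 4 and at -0.22, 0.07, -0.28 and -0.38 on iKO arrays 1 to 4. The iKO arrays were at least 17.6-fold above the background of the flox arrays (measured means -4.81 and -0.21, adjusted p = 1.24e-06). A second Prom2 probe did not show this. It was above background on 1 of 3 flox arrays and on 0 of 4 iKO arrays, and its difference was -0.36. The probes are shown because they report different parts of the gene: the first, at chr2:127268013-127268072, by its first 30 bases, and the second, whose bases map across chr2:127273709-127275709 in mm7, whole. Both lie on the minus strand, and with the mean of both probes Prom2 did not pass.
Prom2, first probe: ttatgaatgtacaagcaagttttgctgcta
Prom2, second probe: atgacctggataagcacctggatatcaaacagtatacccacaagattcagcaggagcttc

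Wfdc15b lay at -5.64, -4.85 and -5.77 on the flox arrays and at -1.35, -1.26, -2.14 and -1.56 on the iKO arrays. The rise was at least 6.80-fold (measured means -5.42 and -1.58, adjusted p = 0.000273). Bnipl lay at -6.05, -6.25 and -6.06 on the flox arrays and at -3.25, -2.40, -2.86 and -2.64 on the iKO arrays. Its rise was at least 2.94-fold (measured means -6.12 and -2.79, adjusted p = 0.03), and the call was lost without young iKO 2 and without each of the 7 aged ileum arrays (adjusted p = 0.0519 to 0.123), and without flox 1 and iKO 2 together (adjusted p = 0.112). A second Bnipl probe differed by 2.75 with 2 of 4 iKO arrays above background. Prom2, Bnipl and Wfdc15b had been placed in their lists with these results known.

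Other genes of membranes and cell junctions rose by less. Slc44a2, a choline transporter-like protein, lay between -1.69 and -1.44 on flox and between -0.35 and -0.27 on iKO arrays (1.28 ± 0.17, adjusted p = 0.00593), and a second probe whose position overlaps it gave 1.31. Pkp1, plakophilin 1 of the desmosome, rose by 0.73 ± 0.10 (adjusted p = 0.00885), and Pllp, plasmolipin, a protein of membrane rafts, by 0.97 ± 0.14 (adjusted p = 0.0109), with 0.84 on another probe, while its remaining probe, on the opposite strand, was above background on no array. Pdzk1ip1, a small membrane protein that binds the scaffold PDZK1, rose by 0.89 ± 0.13 (adjusted p = 0.0109). Pkp1, Pllp and Pdzk1ip1 each lost their call when aged flox 4 was left out (adjusted p = 0.0593 to 0.0778) and with no other single array. Prss8, a membrane-bound serine protease that activates the epithelial sodium channel, did not pass (0.75 ± 0.14, adjusted p = 0.0684), nor did Ly6d, a GPI-anchored surface protein (1.78 ± 0.48, adjusted p = 0.187). In the list of surface and squamous epithelial genes 2 of 22 tested passed, against 0.116% of all genes tested on the higher side. These were Prom2 and Bnipl, both listed with their results known, and the median was 0.06.

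Several signalling genes rose. Arhgap8, a GTPase-activating protein, lay at 0.55, 0.07 and 0.37 on flox and at 1.79, 2.01, 1.47 and 1.39 on iKO arrays (1.34 ± 0.18, adjusted p = 0.00662). Il17re, the receptor subunit through which epithelium responds to interleukin 17C, rose by 1.03 ± 0.16 (adjusted p = 0.0191). Omitting the aged array flox 4, iKO 1, iKO 2 or iKO 3 ended this call (0.0586 to 0.117), and a second probe, above background on no array, gave -0.51. It had been listed with this result known, and 0 of the other 6 tested genes of its list, receptors and ligands of interleukin 17, passed limma. Plch2, a phospholipase C, rose by 0.86 ± 0.13 (adjusted p = 0.0192; 0.0585 to 0.0838, no longer passing, when flox 3, flox 4, iKO 1, iKO 2 or iKO 3 was omitted). Pla2g2f, a secreted phospholipase A2, rose by 1.00 ± 0.17 (adjusted p = 0.0414; lost without 10 of the 15 arrays, up to 0.221). Macc1, a regulator of the receptor gene Met, rose by 0.85 ± 0.15 (adjusted p = 0.0436; lost without 12 of the 15, up to 0.159).

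Of the remaining genes that rose, Ankrd22, an ankyrin repeat protein, and Hebp2, a haem-binding protein, changed most. Ankrd22 lay at -1.21, -1.65 and -1.69 on flox and at 0.21, 0.76, 0.72 and 0.66 on iKO arrays, a 4.29-fold rise (2.10 ± 0.16, adjusted p = 3.39e-05). Its second probe was above background on no array (0.35), and the mean of both did not pass. Hebp2 lay at -0.71, -1.31 and -0.81 on flox and at 0.26, 1.03, 0.74 and 0.66 on iKO arrays, a 3.07-fold rise (1.62 ± 0.17, adjusted p = 0.000861). Psrc1, a microtubule-associated protein of the spindle, rose by 0.71 ± 0.09 (adjusted p = 0.00427) on its brightest probe and by 0.64 and 0.63 on the others. Mthfd2, the mitochondrial enzyme of one-carbon folate metabolism, rose by 0.87 ± 0.13 (adjusted p = 0.0109; 0.0617 without aged flox 4), and Brip1, a DNA helicase that binds BRCA1, by 0.62 ± 0.10 (adjusted p = 0.03; lost without 8 of the 15 arrays, up to 0.175). A second Brip1 probe, above background on all 7 arrays, gave 0.35.

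Among the 8 genes that fell, ccdc198, which encodes a coiled-coil protein, fell furthest. It lay at 2.04, 2.49 and 2.62 on flox and at 0.78, -0.45, -0.10 and -0.11 on iKO arrays, a 5.10-fold fall (-2.35 ± 0.28, adjusted p = 0.00202). Lpar3, a receptor for the lipid mediator lysophosphatidic acid, lay at -2.59, -2.61 and -2.82 on flox and at -4.54, -4.76, -4.36 and -4.13 on iKO arrays. The groups were 1.31 apart at their nearest (-1.77 ± 0.16, adjusted p = 0.000157), and 2 of 4 iKO arrays were above background. Sult1c2, a cytosolic sulfotransferase, lay at 2.67, 1.83 and 1.82 on flox and at -0.28, 0.95, 0.24 and 0.40 on iKO arrays (-1.78 ± 0.29, adjusted p = 0.0292). It no longer passed once any of the aged arrays flox 1, flox 4, iKO 1, iKO 3 and iKO 4 was omitted (adjusted p = 0.0599 to 0.0877).

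Pyroxd2, an oxidoreductase of mitochondria, fell by 0.62 ± 0.08 on the log2 scale (adjusted p = 0.00593), from between -0.27 and -0.13 to between -0.88 and -0.73, while its second probe, above background on no array, gave 0.02. Col6a2, a chain of the matrix protein collagen VI, fell by 0.81 ± 0.12 (adjusted p = 0.0111; 0.0956 without flox 1 and iKO 2), with -0.36 on its second probe. Its partner chain Col6a1 differed by -0.75 ± 0.15 and did not pass (adjusted p = 0.075). Foxa2, a forkhead transcription factor of endoderm, fell by 0.87 ± 0.15 (adjusted p = 0.0316; lost without 9 of the 15 arrays, up to 0.123). Fgf1, an acidic fibroblast growth factor, fell by 1.13 ± 0.20 (adjusted p = 0.0465; lost without 12 of the 15, up to 0.221). Its probe was not above background on every aged ileum array. Ccl27a, a chemokine with close copies nearby in the mouse genome that the probe may also read, fell by 0.52 ± 0.09 (adjusted p = 0.0479; lost without 12 of the 15, up to 0.249).

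Genes next in order of p did not pass and are given as values. On the higher side were Zfp7, a zinc finger protein (0.59 ± 0.11, adjusted p = 0.0669), Phc1, a Polycomb subunit (0.80 ± 0.15, adjusted p = 0.0698), Osbpl5, a sterol and lipid transfer protein (0.64 ± 0.13, adjusted p = 0.0784), and Nupr1, a stress-induced chromatin protein (0.87 ± 0.17, adjusted p = 0.0835). On the lower side were Clic6, a chloride channel-like protein (-0.97 ± 0.18, adjusted p = 0.0571), Macrod2, which removes ADP-ribose (-0.87 ± 0.16, adjusted p = 0.0598), and Fam126a (-1.05 ± 0.20, adjusted p = 0.0669). Second probes of Macrod2 and Fam126a gave 0.54 and 0.36.

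Genes of drug and xenobiotic metabolism lay lower in iKO over the phase 1 list of oxidases and esterases. Of 29 tested, 26 had a negative difference and 0 passed limma. For 10 of the 29 every iKO array lay below every flox array, against 5.77% of all genes tested. The median was -0.74 against 0.02 over all genes, of which 53.5% were positive. Adh1, an alcohol dehydrogenase, lay at 2.19, 2.42 and 2.37 on flox and at 1.51, 1.49, 1.32 and 1.27 on iKO arrays (-0.93 ± 0.18, adjusted p = 0.0669). Ces2a, a carboxylesterase, differed by -0.92 ± 0.19 (adjusted p = 0.0835), Ces2b by -0.48 ± 0.14 (adjusted p = 0.211) and Ephx2, soluble epoxide hydrolase, by -1.30 ± 0.37 (adjusted p = 0.206). The mean of the list was 0.27 to 0.73 above the 7-array mean on flox arrays and 0.20 to 0.58 below it on iKO arrays. The median was -0.64 on the shared slide and -0.80 without flox 1 and iKO 2. These families hold close copies that probes may read together.

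The phase 2 list of conjugating and antioxidant enzymes had no such lean, with 19 of 30 negative and a median of -0.09, and Sult1c2 was its 1 called member. Ugt2b5, a glucuronosyltransferase, differed by -1.56 ± 0.38 (adjusted p = 0.151). The alpha class Gsta1 and Gsta2 lay the other way, by 0.89 ± 0.27 and 0.98 ± 0.28 (adjusted p = 0.224 and 0.208). Genes typical of the proximal small intestine had a median of -0.49 with 15 of 17 negative, and 0 passed limma. Adh1, Cyp2c65, Cyp2c66, Cyp3a11 and Cyp3a25 are also in the phase 1 list, so the medians of these lists are not independent. Whether the remaining members shifted apart from the shared ones was not tested. Groups did not overlap for 3 members on the lower side (Adh1, Cyp2c65 and Cyp2c66) and 2 on the higher side, among them Gsta1. Over all genes tested the shares were 5.77% and 8.39%. The mean of the proximal list was 0.59 and 0.58 above the 7-array mean on flox 3 and flox 4. On flox 1 it was 0.17 below, within the iKO range of -0.42 to 0.07. Without flox 1 the median was -0.84. Genes of bile acid transport and FXR had a median of 0.07 over 12 tested, of lipid absorption 0.03 over 23 and of the brush border -0.02 over 24, with 0 passing limma in each.

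In the secretory and stem cell compartments single genes stood out. Enteroendocrine genes were negative in 20 of 24 tested, with a median of -0.33 and 0 passing limma. Their mean was 0.26 and 0.27 on flox 3 and flox 4 but -0.12 on flox 1, within the iKO range of -0.18 to -0.03, and the median was -0.18 with slide as a fixed factor. Chga, a protein of hormone granules, lay at 3.77, 3.92 and 4.12 on flox and at 3.28, 3.47, 3.20 and 2.85 on iKO arrays (-0.74 ± 0.17, adjusted p = 0.134). Insl5, a hormone of distal L cells, differed by -1.43 ± 0.30 (adjusted p = 0.109) and Tph1, the enzyme of serotonin synthesis, by -0.84 ± 0.28 (adjusted p = 0.263). Olfm4, a secreted marker of crypt base stem cells, lay at -0.36, 0.42 and 0.12 on flox and at -0.79, -1.53, -1.63 and -0.90 on iKO arrays. It did not pass (-1.27 ± 0.24, adjusted p = 0.0684), and its second probe gave -1.23. The other stem cell genes did not share this size, with a median of -0.07 over the 19 tested, and Ascl2, a Wnt target of stem cells, differed by -0.68 ± 0.23 (adjusted p = 0.279).

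Paneth cell genes were positive in 16 of 20 tested with a median of 0.22, but -0.30 on the shared slide and between 0.10 without flox 1 and 0.40 without flox 3 when single arrays were left out. Mmp7, the protease that activates defensins, lay between 4.17 and 4.73 on flox and between 5.23 and 5.36 on iKO arrays (0.81 ± 0.20, adjusted p = 0.151), and Pla2g2a, a phospholipase A2 gene, differed by 0.83 ± 0.22 (adjusted p = 0.176). Goblet cell genes had a median of 0.00, tuft cell genes -0.04 and transcription factors of the secretory lineage 0.00. Foxa2 was the only gene of these lists that passed.

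Stromal and muscle genes lay lower in iKO. Of 22 fibroblast and matrix genes 21 were negative, with a median of -0.51. For 10 of the 22 every iKO array lay below every flox array, against 5.77% of all genes tested. Col6a2 passed, and Mmp2, a gelatinase (-0.67 ± 0.22, adjusted p = 0.258), and Timp2, a protease inhibitor (-0.61 ± 0.18, adjusted p = 0.219), did not. All 16 smooth muscle genes were negative with a median of -0.24, among them Myh11, smooth muscle myosin (-0.51 ± 0.22, adjusted p = 0.395), and all 15 endothelial genes with a median of -0.29, among them Kdr, the VEGF receptor (-0.38 ± 0.16, adjusted p = 0.369). The fibroblast mean was highest on flox 1 (0.51), the array with the highest mean of the joint fat and pancreas list, and 0.09 and 0.15 on the other flox arrays. On the iKO arrays it ran from -0.43 to 0.11. Groups did not overlap for 1 of the 16 smooth muscle genes, near the share of all genes, and for 2 of the 15 endothelial genes. Smooth muscle on iKO 3 (0.16) lay within the flox range of 0.08 to 0.20, and the endothelial mean was higher on iKO 1 and iKO 3 (0.01 and 0.04) than on flox 3 (-0.01). On the shared slide the medians were -0.29, -0.06 and -0.30, and without flox 1 and iKO 2 they were -0.38, -0.25 and -0.10. The smooth muscle median was -0.14 without iKO 1, and the endothelial median -0.15 without iKO 2. In whole tissue fewer cells of a type and less RNA per cell cannot be told apart.

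**Figure D3:**
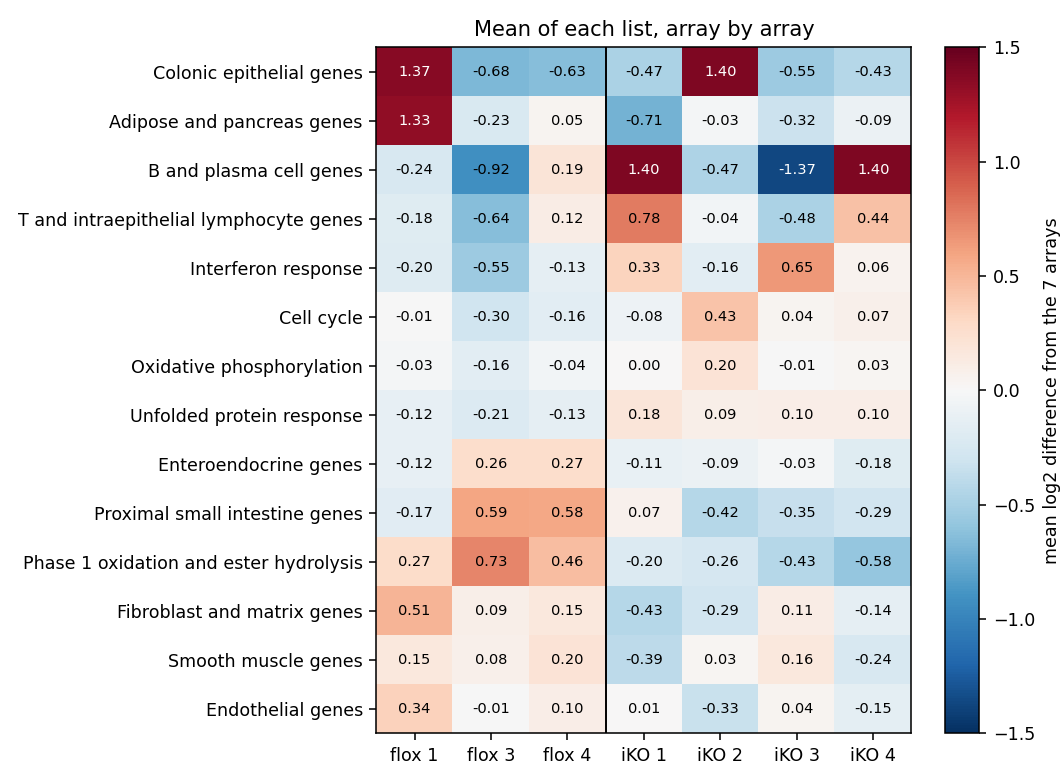
Mean over the tested genes of 14 lists on each array of 24-month ileum, as the log2 difference from the mean of the 7 arrays (colour and printed values). Flox 1 and iKO 2 stand apart in colonic epithelial genes (1.37 and 1.40), iKO 1 and iKO 4 in B and plasma cell genes (1.40 each), and the phase 1 list is above 0 on all 3 flox arrays and below 0 on all 4 iKO arrays.

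Several immune lists lay higher in iKO, with large differences among iKO arrays, while MHC class II genes (8 of 10 negative, median -0.19) and macrophage and myeloid genes (10 of 18 negative, median -0.12) lay slightly lower. All 30 interferon response genes were positive, with a median of 0.44 and 0 passing limma. For 6 of the 30 every iKO array lay above every flox array, against 8.39% of all genes tested. Mx2, an antiviral GTPase, differed by 0.90 ± 0.38 (adjusted p = 0.366), and Usp18, which removes the ubiquitin-like protein ISG15, by 1.20 ± 0.57 (adjusted p = 0.425). The mean of this list was 0.65 on iKO 3 and -0.16 on iKO 2, which lay within the flox range of -0.55 to -0.13, and the median was 0.17 with slide as a fixed factor. Genes of NF-kB, cytokines and chemokines were positive in 16 of 22 tested with a median of 0.26, and antimicrobial defence genes in 19 of 25 with a median of 0.45. The first median was 0.17 without flox 3 and 0.41 without iKO 2, and the second 0.89 without flox 1, 0.20 without flox 3 and 0.27 without iKO 2. On the shared slide they were 0.02 and 0.79. In each list 2 genes had every iKO array above every flox array, near the share of all genes. Wfdc15b, listed with its result known, was among these. The NF-kB mean on iKO 2 (-0.20) lay within the flox range of -0.31 to -0.02. The antimicrobial mean on flox 1 (0.24) lay within the iKO range of -0.08 to 0.41. Tnf, which encodes tumour necrosis factor, differed by 1.14 ± 0.47 (adjusted p = 0.367), with flox arrays at -1.81, -3.01 and -3.66 and iKO arrays between -1.92 and -1.35. All 17 T and intraepithelial lymphocyte genes were positive with a median of 0.48, but none had groups without overlap, and the median was 0.19 without flox 3, 0.26 without iKO 1 and 0.10 with slide as a fixed factor. For 12 B and plasma cell genes the median was 0.60 with means from -1.37 to 1.40 among the iKO arrays. That median was 0.30 without flox 3, 0.21 without iKO 1, 0.19 without iKO 4 and 1.12 without iKO 3. Of the macrophage genes, Adgre1, which encodes the F4/80 antigen, differed by -0.68 ± 0.17 (adjusted p = 0.156) and Itgam, integrin CD11b, by 0.82 ± 0.24 (adjusted p = 0.221).

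Genes of the mitochondria, the endoplasmic reticulum and the cell cycle lay slightly higher, and 0 of them passed limma, Mthfd2 being in none of these lists. Oxidative phosphorylation genes were positive in 34 of 36 tested with a median of 0.14 (0.08 without flox 3 or iKO 2). For 7 of the 36 every iKO array lay above every flox array, against 8.39% of all genes tested. Ndufs1, a subunit of complex I, differed by 0.39 ± 0.13 (adjusted p = 0.253). Unfolded protein response genes were positive in 21 of 26 with a median of 0.20 (0.12 without flox 3, 0.06 with slide as a fixed factor), and their mean lay between -0.21 and -0.12 on flox and between 0.09 and 0.18 on iKO arrays. Chac1, a glutathione-degrading enzyme induced by ATF4, lay at -0.27, -1.79 and -1.53 on flox and at 2.60, -0.06, 1.58 and 0.75 on iKO arrays (2.41 ± 0.55, adjusted p = 0.128). Asns, asparagine synthetase, differed by 0.67 ± 0.21 (adjusted p = 0.241). Cell cycle genes were positive in 28 of 29 with a median of 0.28, Mki67 by 0.37 ± 0.15 (adjusted p = 0.355). For 3 of these 29 genes every iKO array lay above every flox array, near the share of all genes. On iKO 1 their mean (-0.08) lay within the flox range of -0.30 to -0.01. Their mean was highest on iKO 2 (0.43), and the median was 0.68 on the shared slide and 0.17 without iKO 2. Genes of p53 and senescence had a median of -0.08 and genes of PPAR-alpha and fatty acid oxidation -0.18, with Acadl, a mitochondrial dehydrogenase of long-chain fatty acids, at 0.77 ± 0.17 (adjusted p = 0.125).

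**Figure D4:**
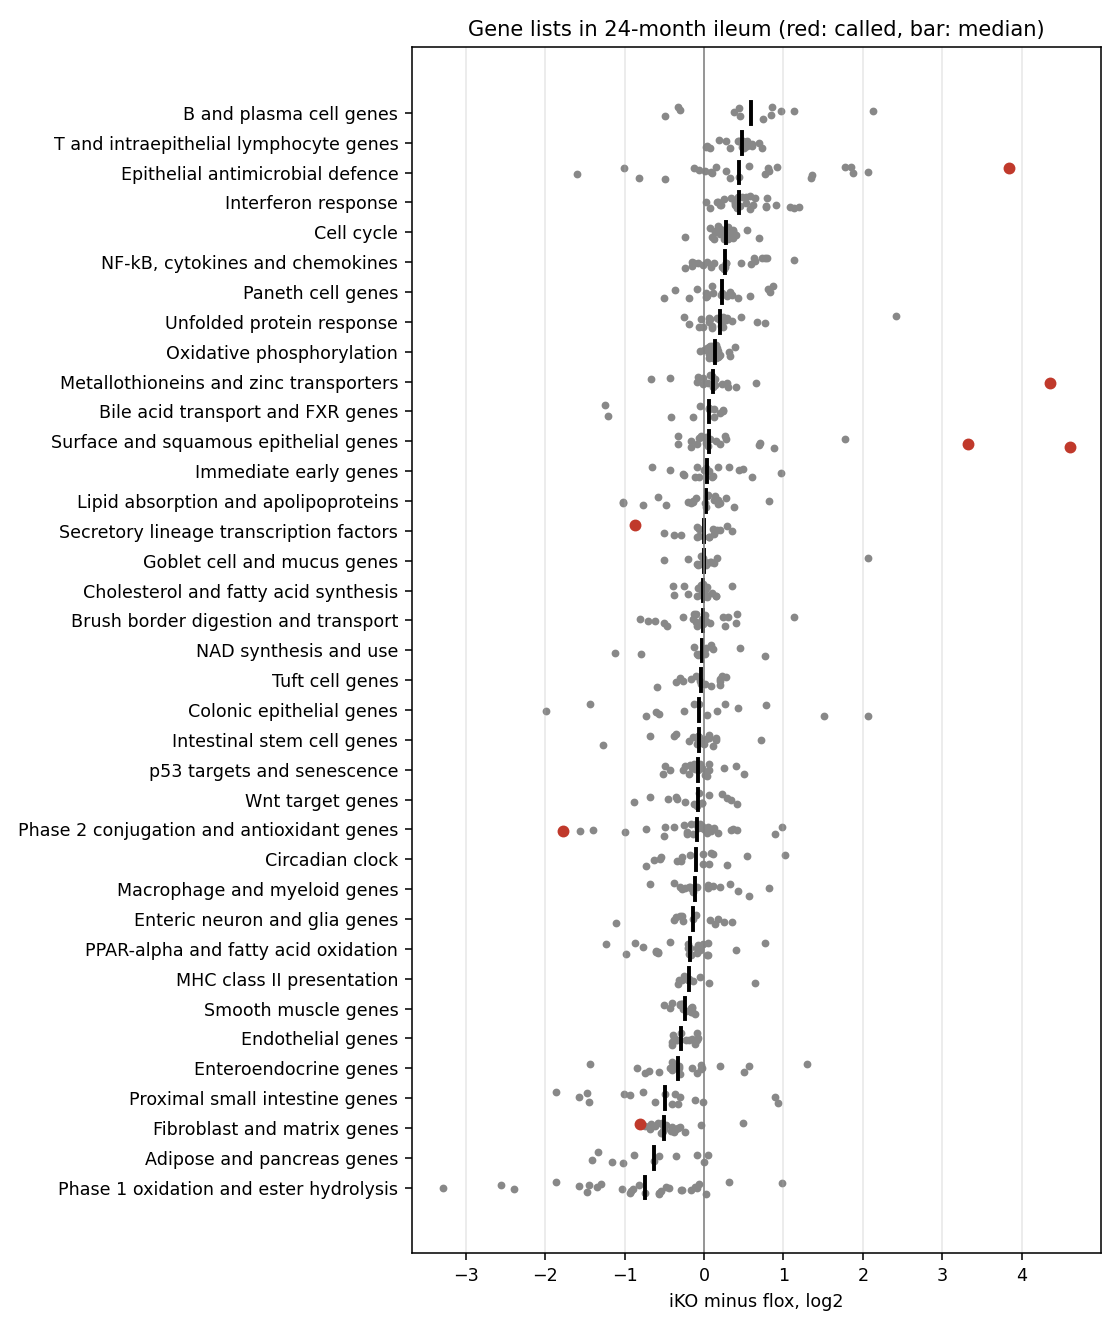
Difference between iKO and flox (log2) in 24-month ileum for each tested member of the lists with at least 10 tested genes (points), with list medians (bars) and called genes in red. Lists are ordered by median, from -0.74 for phase 1 oxidation and ester hydrolysis to 0.60 for B and plasma cell genes (0.19 to 1.12 with single arrays left out), and few members of any list were called.

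The same contrast in young ileum takes its differences from other arrays but was part of the same fit. Its p-values use a spread per gene estimated from young and aged arrays together, so its calls are not independent of those in aged ileum. There 7 genes passed, 0.0452% of the 15490 tested, 6 higher and 1 lower, and all 7 were among the 26: Mt1, Prom2, Wfdc15b, Ankrd22, Slc44a2, Il17re and Pyroxd2. All 26 differed in the same direction in young ileum, as did 65.1% of all genes tested. In young ileum every flox array sat at position 1 of a slide and every iKO array at position 2, so genotype and position cannot be told apart there.

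Whether the difference itself changed with age was tested as the interaction of genotype and age. It passed limma for 0 genes, 0% of the 15490 tested, with 397 at an unadjusted p under 0.05 and a smallest adjusted p of 0.714. It passed for 5 genes without aged flox 1, for 1 without aged flox 4 and for 2 without flox 1 and iKO 2. Lpar3 differed by -0.49 ± 0.15 in young and by -1.77 ± 0.16 in 24-month ileum (interaction -1.28 ± 0.22, adjusted p = 0.714). Mthfd2 differed by 0.14 ± 0.12 and 0.87 ± 0.13 (interaction 0.73 ± 0.17, adjusted p = 1), and Il17re by 1.04 ± 0.15 and 1.03 ± 0.16. Young and aged ileum arrays sat at different positions on the slides, so age and position cannot be told apart.

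In 24-month colon 69 genes passed, 0.351% of the 19651 tested, and 10 of the 18 genes that rose in ileum were among them: Mt1, Prom2, Wfdc15b, Hebp2, Slc44a2, Arhgap8, Il17re, Plch2, Bnipl and Pla2g2f. None of the 8 genes that fell in ileum passed limma in colon. All 18 higher genes were also higher in colon and 7 of the 8 lower genes were lower, where 58.9% of the 15462 genes tested in both tissues had the same sign. Slc44a2 differed by 1.42 ± 0.09 and Il17re by 0.85 ± 0.12. Col6a2 differed by 0.08 ± 0.16 and Lpar3 by -0.03 ± 0.30 there. Every colon flox array sat at position 3 of a slide and every colon iKO array at position 4. Genotype and position therefore cannot be told apart in colon. Ileum and colon arrays were run on different slides and scanned on different dates, so tissue, slide and scan date cannot be told apart. On the colon arrays 70.4% to 79.7% of spots were well above background, more than on those of aged ileum. The colon contrast came from the joint fit of aged ileum and colon arrays, so its p-values also use the spread of the aged ileum arrays.

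The interaction of genotype and tissue passed for 7 genes, 0.0356% of those tested, and Mt1 and Prom2 were the called ileal genes among them. Mt1 rose less in colon, by 2.41 ± 0.18 (interaction 1.94 ± 0.25, adjusted p = 0.0249). This call was lost when ileum flox 1, 3 or 4, ileum iKO 1, 3 or 4, or colon iKO 1, 2 or 4 was omitted (adjusted p = 0.0567 to 0.0943), and without ileum flox 1 and iKO 2 together (adjusted p = 0.0819). Prom2 was at least 344-fold above background in colon and at least 17.6-fold in ileum (interaction -4.47 ± 0.39, adjusted p = 0.00121). No flox array was above background in either tissue and the background differed between tissues, so these bounds do not show in which tissue the rise was larger. With replicate number as a block 0 genes passed limma for this interaction, with 1167 at an unadjusted p under 0.05, and the adjusted p was 0.156 for Mt1 and 0.0652 for Prom2. The count of 7 was 3 when aged ileum iKO 4, colon iKO 1 or colon iKO 2 was omitted, 4 when ileum flox 3, ileum flox 4, ileum iKO 1, colon flox 1 or colon iKO 4 was, and 11 when colon flox 4 was.

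**Figure D5:**
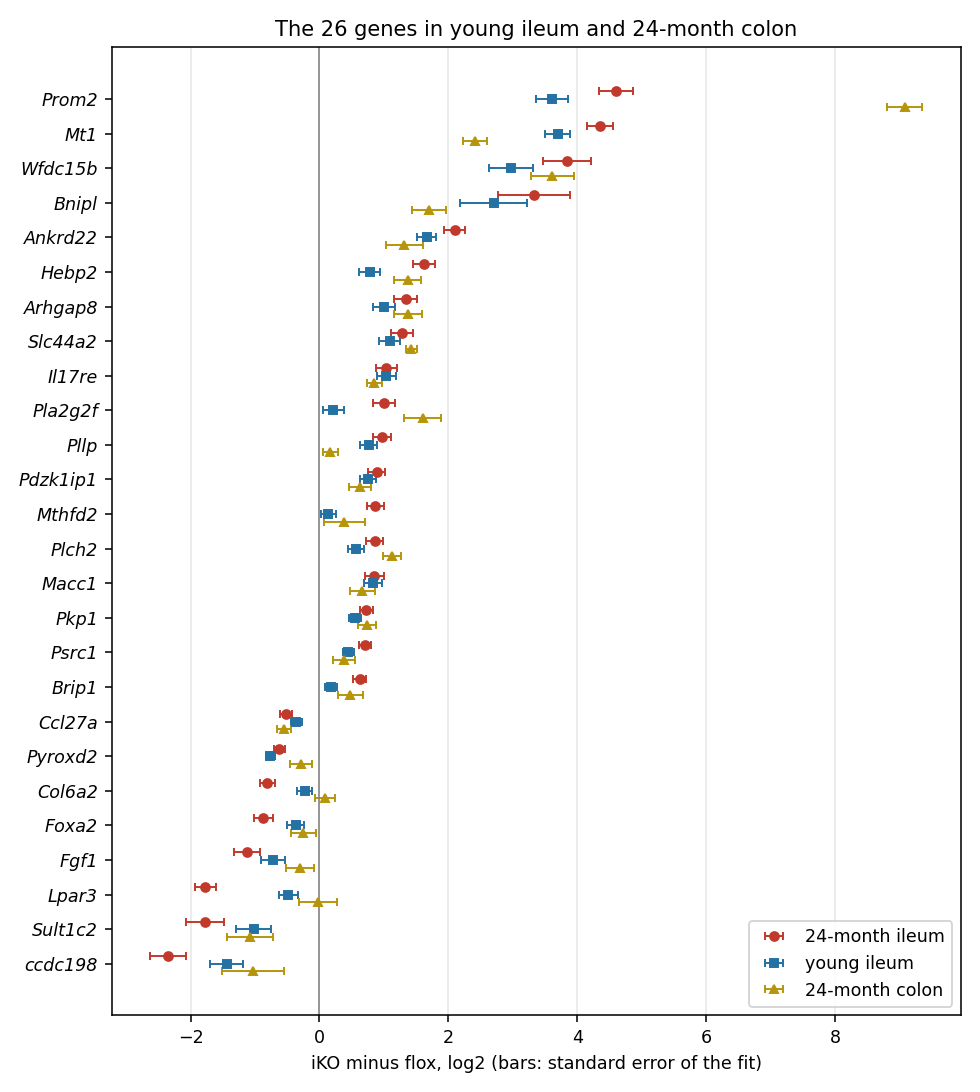
Difference between iKO and flox (log2, bars are standard errors of the fit) for the 26 genes called in 24-month ileum (red circles), with the same genes in young ileum (blue squares) and 24-month colon (ochre triangles). All blue points lie on the side of the red points, and Prom2 lies furthest right in colon.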

How the data were processed

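Total RNA was labelled with Cy3 and hybridised to Agilent whole mouse genome 4x44 arrays, 1 colour. The deposited values are signal intensities made by the authors with Agilent Feature Extraction (9.5, per the submitters' processing notes), with background subtraction and spatial detrending within each array per the file headers and no scaling between arrays. The series' value table equalled the scanner values and was not used further.

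Control and outlier spots were left out, spots of a probe averaged, log2 taken and the 75th percentile of each array subtracted. Of 41174 probes, a RefSeq gene table (GRCm38.p6, names only) gave names to 23082 through their accession, to 6582 through a symbol and to 3073 through an older name. The array's own name was used for 8437, and 27666 names resulted. Probe positions and sequences are those of the array files (mm7). A gene was read by its brightest probe and tested where, in some group, no array had that probe at background. Differences were tested with limma 3.58.1 (R 4.3.3). The 15 ileum arrays shared 1 fit, with a second of the 14 aged arrays for the tissue comparison, with Benjamini-Hochberg adjustment over all genes tested and calls under 0.05. Where no array of a group was above background, the fold was taken, as a lower bound, against the higher of the array's dimmest detected probe and the probe's own value. Fits were tested on simulated data.

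The members, lists and tests were chosen with earlier results of these data known. The text names Sirt1, every called gene, from the 10 nearest genes each way that did not pass, and from each list members called or among the 4 smallest p; Mt2 and the tissue markers were added for comparison. Lists are described by counts and medians with no test. Alternatives covered scaling, background correction, filter, probes, arrays in the fit, variance moderation, weights, slide, position, replicate number and each array left out. Numbers were not taken as pairs, since the labels state no pairing. Residuals of aged ileum arrays with equal replicate numbers correlated at -0.36, 0.13 and 0.13. Those of ileum and colon arrays of a genotype with equal numbers correlated at -0.03 to 0.12. With so few arrays in a group these values cannot exclude pairing. The number of arrays limits the precision.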

Additional observations from a re-analysis of the deposited data

Results flagged for a closer look

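In 6 groups of 4 iKO arrays, 1 array lay far from the other 3. For Il17re iKO 4 lay at 1.31 and the others between 1.62 and 1.68. For Phc1 iKO 2 lay at -0.37 (others -0.75 to -0.69), for Macrod2 at -2.43 (-2.84 to -2.78), for Gsta1 at 5.40 (at most 4.63), for Ndufs1 at 4.85 (4.57 to 4.59) and for Kdr at -1.12 (-0.91 to -0.90). Chance gives this in about 1 of 20 groups, and 96 such groups were examined. That 5 of the 6 are iKO 2, 1 of the arrays with colonic epithelial genes, is a count, and its part in these values was not tested.

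The differences of Mt1 and Prom2 between iKO and flox in 24-month ileum departed from those in colon, by 1.94 and -4.47 on the log2 scale. For Prom2 no flox array was above background in either tissue, so the second value is not a measured size.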

How the results depend on the processing

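In 24-month ileum 18 genes were higher and 8 lower. These counts became 10 and 3 in a fit of only the 7 aged ileum arrays, 504 and 505 with array weights, 7 and 2 with slide as a fixed factor, and 5 and 0 with position as a factor (limma, 976 lower at an unadjusted p under 0.05). With no filter on dim probes 4 were lower, and with the mean over a gene's probes 5. Leaving out 1 array at a time gave 8 to 24 higher and 4 to 24 lower. Omitting flox 1 and iKO 2, chosen after seeing the data, gave 21 and 22. The interaction with age, 0 in limma, gave 1 with normexp background correction, 2 without flox 1 and iKO 2, and 0 to 5 with 1 array left out. The interaction with tissue gave 3 to 11 with 1 array left out and 10 without flox 1 and iKO 2. With the replicate block 3 genes were higher and 1 lower (Mt1, Prom2 and Lpar3 of the 26), and the interaction with tissue passed for 0 (1167 at an unadjusted p under 0.05). Residuals of arrays with equal numbers correlated at -0.36 to 0.13 within ileum and at -0.03 to 0.12 between ileum and colon, which cannot exclude pairing. The Mt2 difference of 0.41 was -0.040 without iKO 3 and at most 0.82 without iKO 4. The causes of these changes were not tested. Dim genes such as Bnipl and Wfdc15b in flox arrays are bounded by background, and their adjusted p rest on those background signals.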
